A study of Mus musculus with 24 samples.

Results

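The contralateral hippocampus of mouse pups labelled Neil1-KO was compared with the contralateral hippocampus of wild-type (WT) pups after hypoxia-ischemia, an experimental form of birth-related brain injury. The libraries were chosen by their labels alone: 4 labelled Neil1-KO contralateral libraries and 4 WT contralateral libraries, 8 of the 24 in the series. Both genotypes underwent hypoxia-ischemia on postnatal day 10, and each was sampled at 3 h and at 6 h with 2 replicates per time. The rest of the series holds the injured ipsilateral hippocampus of the same genotypes and both sides of Neil2-KO pups. The labels give neither the strain nor the part of the gene that was removed, and the groups hold no animal without hypoxia-ischemia.

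Neil1 encodes a DNA glycosylase, an enzyme of base excision repair that cuts oxidized bases out of DNA, and Neil2 encodes a related enzyme. After the base is removed, an endonuclease, a polymerase and a ligase restore the strand. In the usual form of the hypoxia-ischemia model the carotid artery of a single side is closed before the pup breathes air low in oxygen, so the contralateral hemisphere meets the hypoxia with its own carotid supply open. The hippocampus at this age still makes new granule neurons and is only starting to myelinate.

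Total RNA was sequenced, and levels are given as normalized counts, that is, reads divided by a size factor of the library. Depth was 17771293 to 28750931 reads in the 8 libraries. In 2 of the 4 labelled Neil1-KO libraries, replicate 2 at 3 h and replicate 2 at 6 h, Xist, the RNA that coats the inactive X chromosome, stood at 10352 and 18158 normalized counts. The other 6 libraries, all 4 of WT among them, had Xist between 7.94 and 20.2, and Y-linked genes such as Ddx3y were high in these and low in the libraries with high Xist. Sex was therefore unbalanced between the genotypes. Ttr, which encodes the thyroid hormone carrier secreted by choroid plexus, stood at 29293 and 263 at 3 h and 194 and 154 at 6 h in labelled Neil1-KO libraries, against 35647 and 174 at 3 h and 30933 and 27741 at 6 h in WT libraries. Choroid plexus transcripts thus differed between libraries within both genotypes. Neuronal, astrocyte and hippocampal subfield markers were present in all 8 libraries, and none of these lists had a called member.

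Neil1 itself was not lost in labelled Neil1-KO. Its level was 91.6 and 104 normalized counts at 3 h and 117 and 126 at 6 h in labelled Neil1-KO, against 88.8 and 99.5 at 3 h and 56.8 and 83.3 at 6 h in WT. The log2 fold change was 0.43 ± 0.16 (SE, n = 4 libraries each), with an adjusted p of 0.565 by limma. Neil2 stood at 22.6 ± 4.43 in labelled Neil1-KO and 21.5 ± 4.6 in WT (SD, n = 4 each). In the libraries titled Neil2-KO, Neil2 stood at 1.06 and 1.07 at 3 h and 0 and 2.66 at 6 h, below every WT library (-3.48 ± 0.45, limma adjusted p = 0.00245 against WT). Reads from outside a deleted part of Neil1 would leave its check without force, so the libraries are called labelled Neil1-KO throughout.

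Across the transcriptome the genotypes differed at few genes. Of 18364 genes tested, 19 passed the threshold (0.103%), which was a Benjamini-Hochberg adjusted p under 0.05 by limma, averaged over 3 h and 6 h. Of these, 8 were higher in labelled Neil1-KO (0.0436%) and 11 lower (0.0599%). The change was at least 2-fold upward for 5 of them and at least 2-fold downward for 3. At an unadjusted p under 0.05 there were 1241 genes. The median log2 fold change over all genes was -0.00751. In 17 of the 19 genes the 4 labelled Neil1-KO libraries did not overlap the 4 WT libraries. Without the 2 labelled Neil1-KO animals with high Xist and the Neil2-KO animal like them, 10 of the 19 were called, where 0.0545% of all genes were. Over all genes, 1.96% lay wholly above WT and 2.42% wholly below it. The 19 genes were called from these same libraries, so groups that do not overlap were favoured in advance. The shares over all genes are thus not a fair background for them.

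**Figure D1:**
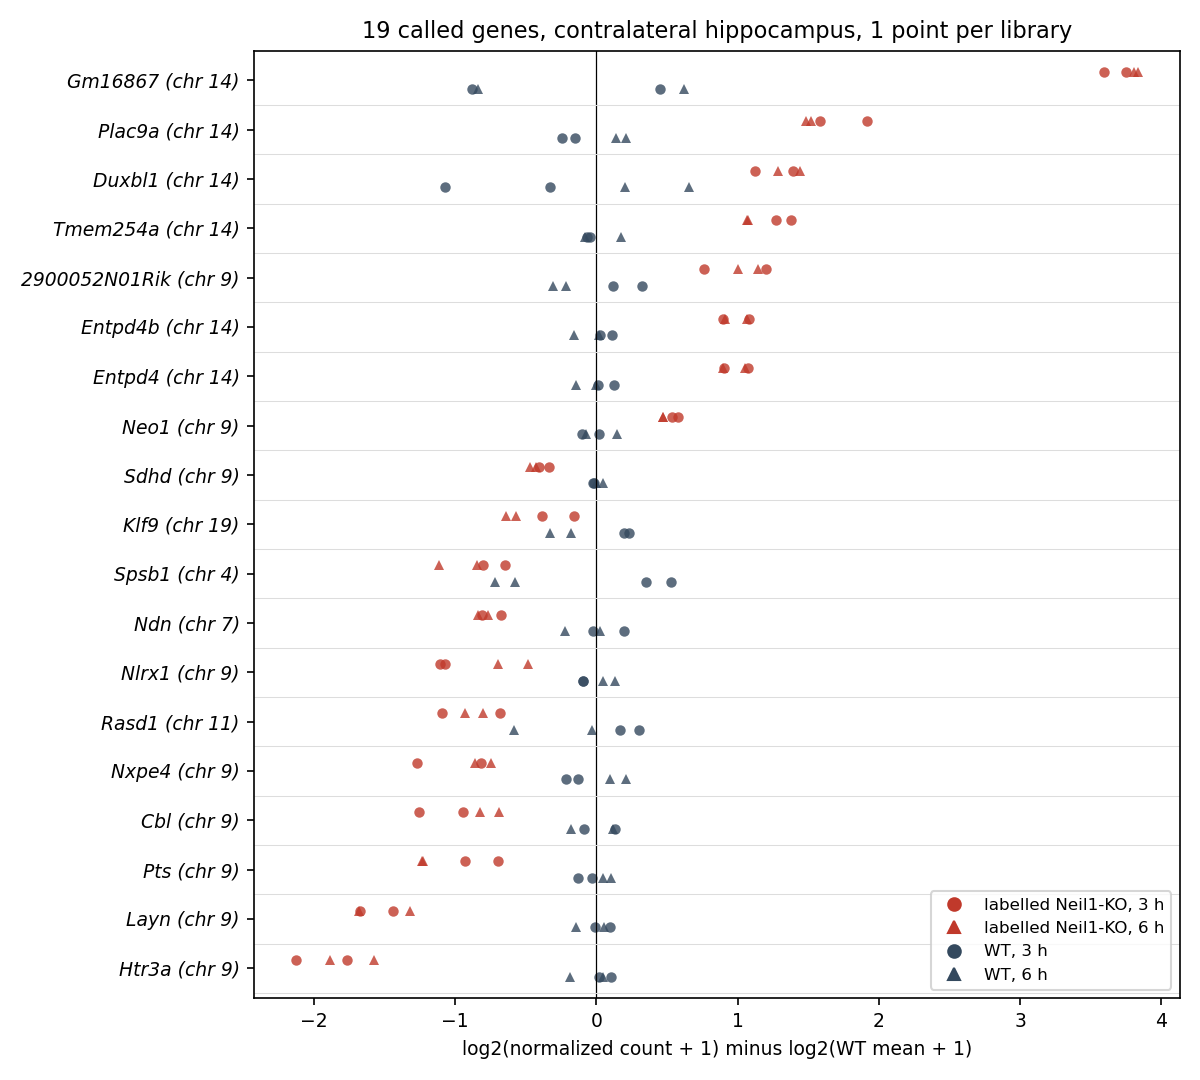
Levels of the 19 called genes in each contralateral library as log2(normalized count + 1) minus the same of the WT mean (horizontal axis), with labelled Neil1-KO (red) above WT (dark) in each row, circles for 3 h and triangles for 6 h. The groups overlap for Spsb1 and Klf9 and are apart for the other 17 genes.

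Most of the called genes lay on a pair of chromosomes. Chromosome 9, which carries Neil1, held 9 of them (0.909% of its 990 tested genes). Chromosome 14, which carries Neil2, held 6 (0.816% of 735). The other chromosomes together held 4 of 16622 tested genes (0.0241%), and 15 of 21 chromosomes held none. Positions were taken as gene order in the RefSeq annotation of GRCm38.p6, to which 99.9% of the tested genes matched by name. The deposited table was counted on GRCm39 and carries no coordinates.

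**Figure D2:**
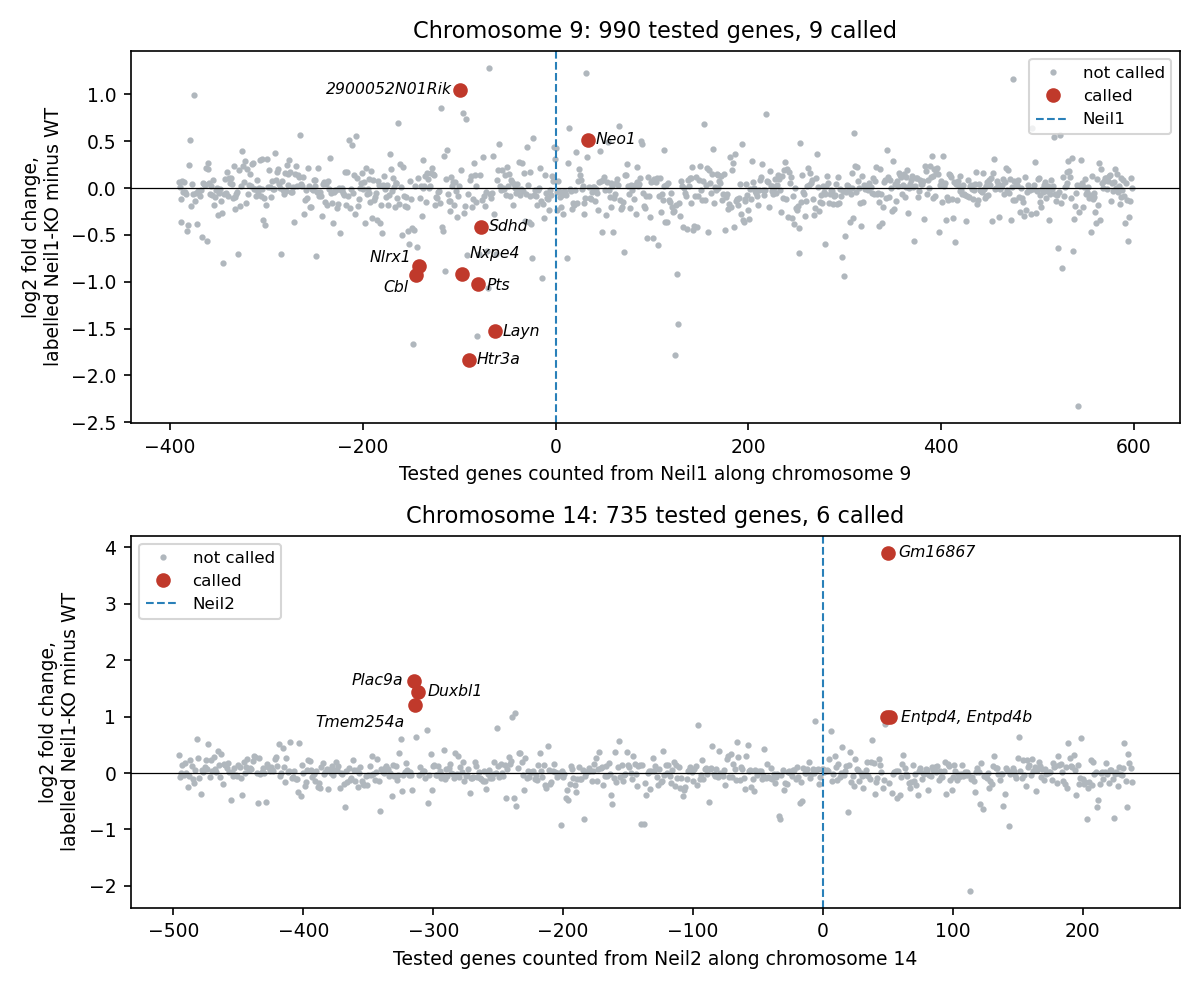
Log2 fold change (labelled Neil1-KO minus WT, contralateral, vertical axis) of every tested gene in its order along chromosome 9, counted from Neil1, and along chromosome 14, counted from Neil2 (dashed lines). Called genes are red: 8 of the 9 on chromosome 9 lie between 63 and 145 tested genes to the left of Neil1, and the 6 on chromosome 14 form a group to the left of Neil2 and a group to its right.

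On chromosome 9, 7 genes were lower and 2 higher. Within 10 Mb of Neil1, 6 of 221 tested genes were called (2.71%), 5 of them lower and 1 higher, while the median log2 fold change of these 221 genes was -0.0253. The median of the interval was thus close to that of all genes.

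Htr3a, which encodes a subunit of the serotonin-gated ion channel found on a class of interneurons, had the largest decrease among the called genes. It stood at 33 and 42.6 normalized counts at 3 h and 48.6 and 39 at 6 h in labelled Neil1-KO, against 158 and 149 at 3 h and 152 and 129 at 6 h in WT. Every labelled Neil1-KO library was below every WT library. The log2 fold change was -1.83 ± 0.28 (SE, limma adjusted p = 0.00432).

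Layn encodes layilin, a membrane receptor for hyaluronan. Its levels were 41.8 and 49.1 at 3 h and 53.6 and 41.5 at 6 h in labelled Neil1-KO, against 145 and 134 at 3 h and 122 and 140.5 at 6 h in WT. The groups were well apart at both times, with a log2 fold change of -1.53 ± 0.14 (adjusted p = 2.23e-05).

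Pts encodes an enzyme in the synthesis of tetrahydrobiopterin, a cofactor for making monoamines and nitric oxide. It had 233 and 275 normalized counts at 3 h and 189.6 and 189 at 6 h in labelled Neil1-KO, against 436 and 407 at 3 h and 459.8 and 479.9 at 6 h in WT. The log2 fold change of -1.02 ± 0.12 (adjusted p = 0.000154) left the groups apart. It was -0.73 at 3 h and -1.31 at 6 h.

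Cbl, a ubiquitin ligase that marks activated receptor tyrosine kinases for breakdown, averaged 972 ± 156 in labelled Neil1-KO and 1834 ± 196 in WT (SD, n = 4 each), with a log2 fold change of -0.92 ± 0.11 (adjusted p = 0.00019). Nxpe4 averaged 158 ± 23.9 in labelled Neil1-KO and 298 ± 40.5 in WT, at -0.91 ± 0.10 (adjusted p = 0.000154). Nlrx1, a member of the NOD-like receptor family that is found at mitochondria, averaged 96.7 ± 20.7 in labelled Neil1-KO and 171 ± 13.6 in WT, at -0.84 ± 0.13 (adjusted p = 0.00735). None of these overlapped between the groups.

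Sdhd, a membrane anchor subunit of succinate dehydrogenase in the respiratory chain, had the smallest decrease on this chromosome and very little spread. Its levels ran between 1577 and 1729.8 in labelled Neil1-KO and between 2150.5 and 2255 in WT. The log2 fold change was -0.41 ± 0.06 (adjusted p = 0.00137).

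The higher genes of chromosome 9 were Neo1 and 2900052N01Rik. Neo1, which encodes neogenin, a receptor for netrins and repulsive guidance molecules, stood at 8781 and 8518 at 3 h and 8153 and 8175 at 6 h in labelled Neil1-KO, against 5500.2 and 5959.6 at 3 h and 5586 and 6525 at 6 h in WT. The groups did not overlap and the log2 fold change was 0.52 ± 0.08 (adjusted p = 0.00735). Neo1 lies 34 tested genes from Neil1 and was the nearest of the called genes to it. 2900052N01Rik, a long noncoding RNA by the RefSeq annotation, averaged 301 ± 39.6 in labelled Neil1-KO and 146 ± 30.1 in WT, at 1.05 ± 0.19 (adjusted p = 0.0248).

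The 6 called genes of chromosome 14 were all higher in labelled Neil1-KO and formed 2 groups. Plac9a, Tmem254a and Duxbl1 lie 315, 314 and 312 tested genes to the left of Neil2 in gene order. Entpd4, Gm16867 and Entpd4b lie 49, 50 and 52 tested genes to its right.

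Both groups contain near-identical gene copies, so the reads of a copy may have been counted elsewhere or split. Transcripts of Entpd4 and Entpd4b in the GENCODE annotation of GRCm38 matched over 3589 bases with 0 differences. The same held for Tmem254a against Tmem254b over 1108 bases and for Plac9a against Plac9b over 536 bases, and Duxbl1 differed from Duxbl2 at 2 of 956 bases. Levels of Tmem254b, Plac9b and Duxbl2 are not reported here. The copies extend upstream of the transcripts. The RefSeq windows (GRCm38.p6, minus strand, the 250 bases before the annotated start) of Tmem254a at chr14:25927673-25927922 and of Plac9a at chr14:25902894-25903143 are shown to let the repeat be seen, with capitals for the stretch also present, with 0 differences, in the window of Tmem254b (234 bases) or Plac9b (222 bases).
Tmem254a: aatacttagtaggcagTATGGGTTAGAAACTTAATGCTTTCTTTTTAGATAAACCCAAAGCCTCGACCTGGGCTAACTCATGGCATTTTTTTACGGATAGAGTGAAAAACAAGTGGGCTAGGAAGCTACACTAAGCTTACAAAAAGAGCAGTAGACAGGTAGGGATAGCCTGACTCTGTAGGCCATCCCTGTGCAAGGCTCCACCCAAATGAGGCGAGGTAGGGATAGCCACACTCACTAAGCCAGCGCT
Plac9a: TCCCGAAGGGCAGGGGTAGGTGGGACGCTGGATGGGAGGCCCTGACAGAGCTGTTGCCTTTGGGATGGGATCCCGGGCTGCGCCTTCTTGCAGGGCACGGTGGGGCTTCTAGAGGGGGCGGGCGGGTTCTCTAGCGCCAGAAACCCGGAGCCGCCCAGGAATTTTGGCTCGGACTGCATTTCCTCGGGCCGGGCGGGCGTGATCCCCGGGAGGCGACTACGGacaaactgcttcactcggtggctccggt
The Tmem254a window was also identical to that of Tmem254c over all 250 bases.

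Tmem254a, a gene for a transmembrane protein, had the smallest adjusted p of the comparison. It stood at 3490.2 and 3242 at 3 h and 2811 and 2817 at 6 h in labelled Neil1-KO, against 1301 and 1282 at 3 h and 1269.7 and 1512 at 6 h in WT. The groups were far apart, with a log2 fold change of 1.20 ± 0.10 (adjusted p = 8.49e-06). Plac9a had 623 and 495 at 3 h and 462 and 473 at 6 h in labelled Neil1-KO, against 148 and 139 at 3 h and 181 and 190.2 at 6 h in WT. Its log2 fold change was 1.64 ± 0.18 (adjusted p = 9.71e-05). Duxbl1, a homeobox gene of the Dux family, averaged 174 ± 16.6 in labelled Neil1-KO and 69.1 ± 33.1 in WT, at 1.44 ± 0.19 (adjusted p = 0.00097).

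Gm16867 showed the largest difference of all called genes. It stood at 125 and 139 normalized counts at 3 h and 147 and 144 at 6 h in labelled Neil1-KO, against 13.2 and 4.63 at 3 h and 4.81 and 14.9 at 6 h in WT, 14.8 times the WT mean. The log2 fold change was 3.91 ± 0.36 (adjusted p = 2.23e-05). RefSeq lists Gm16867 as protein coding and overlapping Entpd4, and 2016 of the 7828 distinct 50-base words in its GENCODE transcripts also occurred in those of Entpd4 or Entpd4b on either strand. Entpd4, which encodes a nucleoside diphosphatase of the Golgi and lysosomes, averaged 1216 ± 78.3 in labelled Neil1-KO and 614 ± 47.5 in WT, at 0.98 ± 0.10 (adjusted p = 6.1e-05). Entpd4b was at 0.99 ± 0.10 (adjusted p = 4.56e-05), a value that cannot be held apart from that of its copy.

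The remaining 4 called genes, all lower in labelled Neil1-KO, lay on chromosomes 7, 4, 19 and 11. Ndn encodes necdin, a protein of postmitotic neurons whose gene is expressed from the paternal allele. Its levels were 5501 and 5022 at 3 h and 5181 and 4912 at 6 h in labelled Neil1-KO, against 8644 and 10096 at 3 h and 8942 and 7529.8 at 6 h in WT. The groups did not overlap, and the log2 fold change was -0.77 ± 0.08 (adjusted p = 6.1e-05). Ndn was the only called gene among 19 tested imprinted genes, whose median was -0.114, 13 of them below 0.

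Spsb1, Rasd1 and Klf9 differed more at 3 h than at 6 h as values. Spsb1, an adaptor that brings substrates to a ubiquitin ligase, stood at 371 and 332 at 3 h and 323 and 268 at 6 h in labelled Neil1-KO, against 841 and 742 at 3 h and 390.5 and 353 at 6 h in WT. The 3 h libraries were apart and the groups overlapped over both times. Its log2 fold change was -0.75 ± 0.10 (adjusted p = 0.00137). Rasd1, a Ras-related gene that dexamethasone induces, averaged 232 ± 28.2 in labelled Neil1-KO and 425 ± 104 in WT, at -0.84 ± 0.15 (adjusted p = 0.0248). Klf9, a transcription factor that glucocorticoid and thyroid hormone induce, averaged 4012 ± 610.0 in labelled Neil1-KO and 5393 ± 1023 in WT, at -0.42 ± 0.07 (adjusted p = 0.0142).

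All 19 genes had the same sign at 3 h and at 6 h. The difference between the times was not called for any of the 18364 genes by limma (0%, smallest adjusted p 0.573) or by edgeR, and was called for 1 gene by DESeq2, with 1022 genes at an unadjusted p under 0.05 by limma. Of the 19 genes, 3 were among these: Spsb1 (log2 fold changes -1.17 at 3 h and -0.34 at 6 h), Duxbl1 (1.96 at 3 h and 0.93 at 6 h) and Pts.

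The same genotypes were set side by side on the injured side, in libraries that do not enter the contralateral fold changes. Those libraries do enter the spread shared by all 24, on which the 19 calls rest. The calls of the sides are therefore not independent. All 19 genes had the same sign on the injured side, 16 were also called, and in 15 the ipsilateral groups did not overlap. Over all genes, 2.16% lay wholly above WT and 3.96% wholly below it ipsilaterally. On that side 9.31% of all genes were called, a far higher background. Sides with the same replicate number may come from the same animals, which the labels do not state. Plac9a (2.35 ± 0.18), Htr3a (-1.99 ± 0.28), Cbl (-0.93 ± 0.11) and Ndn (-1.06 ± 0.08) were about as large ipsilaterally as contralaterally or larger. The genes not called ipsilaterally were Spsb1 (-0.27 ± 0.10), Neo1 (0.21 ± 0.08) and Rasd1 (-0.05 ± 0.15).

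The contralateral difference itself was tested against the ipsilateral one, and no gene was called by limma (0%, smallest adjusted p 0.303) or edgeR, against 5 by DESeq2, with 2652 genes at an unadjusted p under 0.05 by limma. The limma count was 2101 without labelled Neil1-KO ipsilateral 6 h replicate 1 and 174 without WT ipsilateral 6 h replicate 1. Of the 19 genes, 8 had an unadjusted p under 0.05. Layn was furthest apart, with log2 fold changes of -1.53 contralaterally and -0.48 ipsilaterally.

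Neil2-KO libraries served to see which differences separate the labelled Neil1-KO libraries from the other knockout as well. Against the 4 Neil2-KO contralateral libraries, 16 of the 19 genes were called in the same direction, where 2.59% of all genes were called. The same 4 labelled Neil1-KO libraries enter this comparison and the choice of the 19 genes. Calls in the same direction were thus favoured in advance, and the share over all genes is not a fair background. Htr3a, for example, was at 151 and 157 at 3 h and 119 and 117 at 6 h in Neil2-KO, close to its WT levels, and Layn at 136 and 116 at 3 h and 127 and 139.5 at 6 h. The exceptions were the chromosome 14 trio. Tmem254a stood at 3534 and 3175 at 3 h and 3395 and 4405 at 6 h in Neil2-KO, as high as in labelled Neil1-KO, and the difference between the knockouts was -0.23 ± 0.10 (adjusted p = 0.229). Plac9a (-0.52 ± 0.18, adjusted p = 0.126) and Duxbl1 (0.40 ± 0.19, adjusted p = 0.277) were not called between the knockouts either. Both comparisons with WT use the same 4 WT libraries. In Neil2-KO against WT, where 0.0817% of all genes were called, Tmem254a was at 1.43, Plac9a at 2.16 and Duxbl1 at 1.05, while Gm16867 was at -0.85 and Entpd4 at -0.10.

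**Figure D3:**
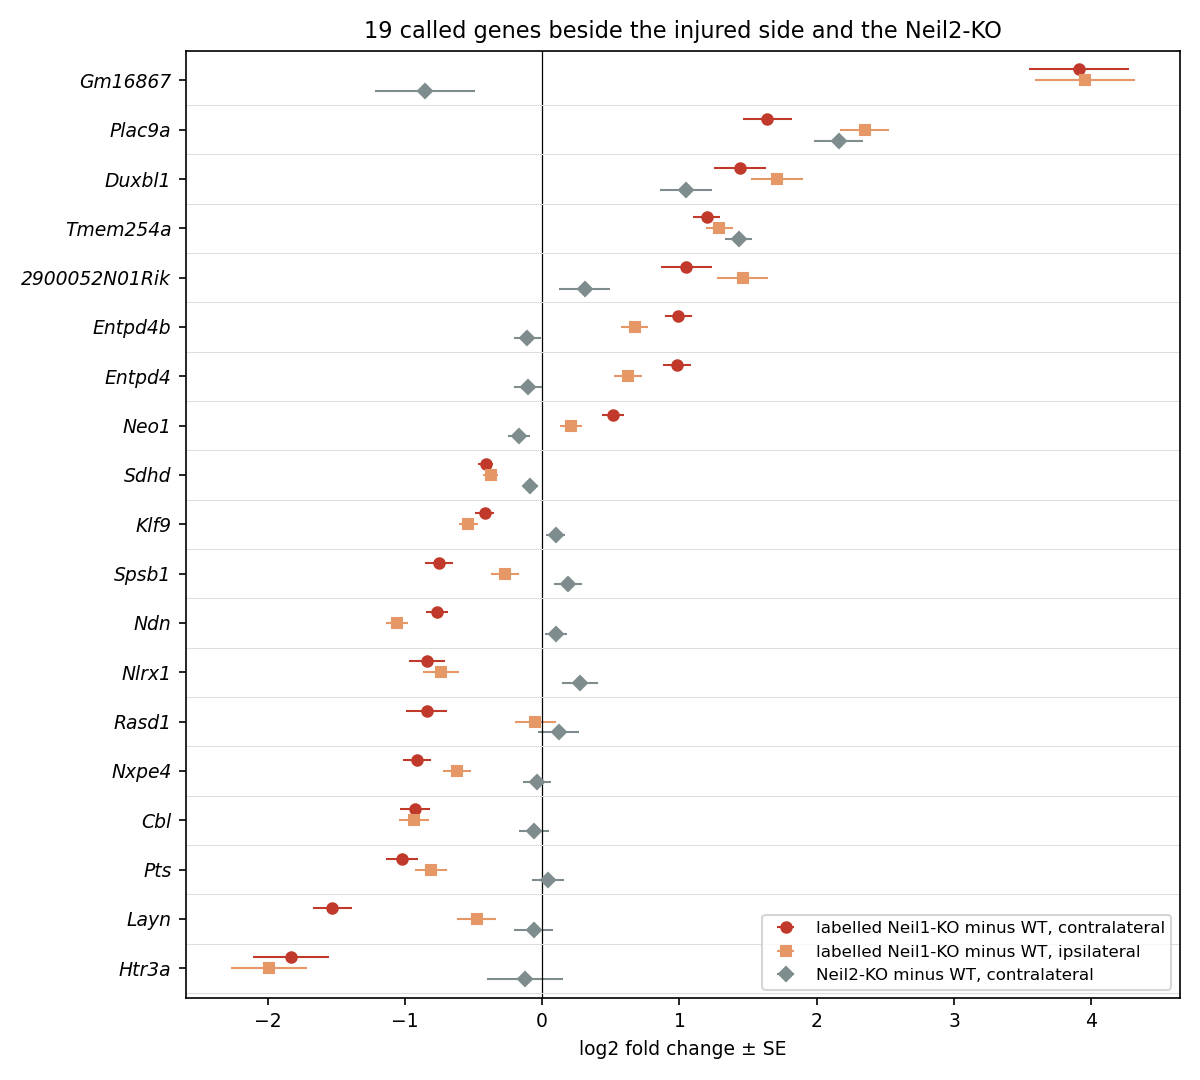
Log2 fold change ± SE (horizontal axis) of the 19 called genes for labelled Neil1-KO minus WT contralaterally (red circles) and ipsilaterally (orange squares) and for Neil2-KO minus WT contralaterally (grey diamonds), the last sharing its WT libraries with the first. The ipsilateral value has the sign of the contralateral one for all 19 genes, and Neil2-KO is far from 0 with labelled Neil1-KO at Plac9a, Duxbl1 and Tmem254a.

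Genes of base excision repair did not pass the threshold. None of 11 DNA glycosylase genes was called, with 8 above 0 and a median of 0.0692. None of 18 downstream genes of base excision and strand break repair was called, with a median of 0.0207. Tdp1, which clears blocked DNA ends, was at 0.30 ± 0.09 (adjusted p = 0.42), and Polb, the polymerase of base excision repair, at -0.12 ± 0.07 (adjusted p = 0.847).

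Of 33 gene lists examined, 13 held markers of cell types or neighbouring tissues. Only the lists of glucocorticoid targets and imprinted genes had a member called by limma on all 24 libraries. Calls of list members are by this fit unless another is named. Several lists had nearly all their members on one side of 0, and they are described by these counts and by their medians, beside 52.3% of all genes below 0. A lower level of a cell type's transcripts in bulk tissue can come from fewer cells or from less RNA per cell, which cannot be told apart here.

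**Figure D4:**
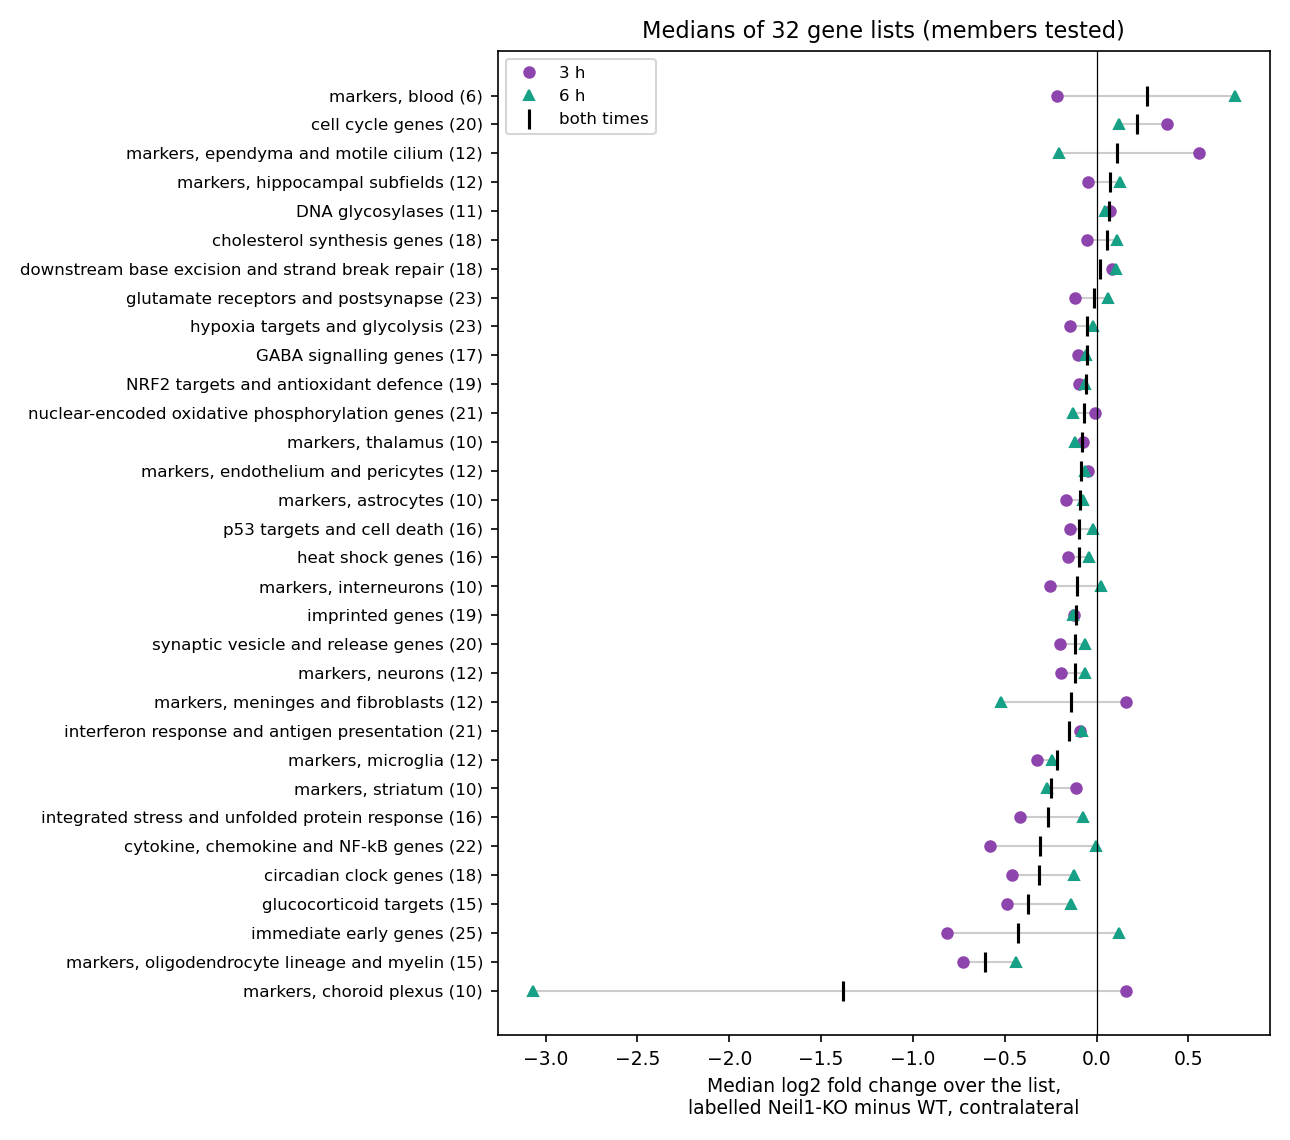
Median log2 fold change (labelled Neil1-KO minus WT, contralateral, horizontal axis) over the tested members of 32 gene lists at 3 h (circles), 6 h (triangles) and as the mean of both (bars). The choroid plexus markers have the lowest median, -1.38, followed by the oligodendrocyte and myelin markers at -0.609 and the immediate early genes at -0.426.

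Transcripts of myelin and its oligodendrocytes lay below WT in labelled Neil1-KO as values. All 15 tested members of the list were below 0, with a median of -0.609, and 9 lay wholly below WT, where 2.42% of all genes did. None of the 15 was called by limma on all 24 libraries. DESeq2 called 1 of them, Mobp (adjusted p = 0.0429), where 0.457% of all genes were called. Mobp, a structural myelin protein gene on chromosome 9, stood at 55.5 and 143 at 3 h and 78.4 and 48.8 at 6 h in labelled Neil1-KO, against 885 and 388 at 3 h and 323 and 182 at 6 h in WT (log2 fold change -2.33 ± 0.58, adjusted p = 0.198). Mbp, the myelin basic protein gene, stood at 2753 and 2726 at 3 h and 2457 and 2198 at 6 h in labelled Neil1-KO, against 8946 and 5384 at 3 h and 4718 and 3335 at 6 h in WT (-1.06 ± 0.31, adjusted p = 0.362). Both were apart between the groups, and WT at 3 h was the highest.

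Mag, a glycoprotein of the myelin sheath, was at -1.33 ± 0.46 (adjusted p = 0.492), and Cldn11, a tight junction protein of myelin, at -1.22 ± 0.34 (adjusted p = 0.33). Among genes of progenitors and of the whole lineage, Pdgfra was at -0.05 ± 0.15 and Olig2 at -0.01 ± 0.16. The list members Cspg4, Olig1 and Sox10 are not reported here. Enpp6 was at -0.86 ± 0.27 (adjusted p = 0.423) and Bcas1 at -0.66 ± 0.23 (adjusted p = 0.49). The spread used here is shared by all 24 libraries. When only the 12 contralateral libraries entered the fit, 6 members of the list were called, where 0.387% of all genes were and 0.272% were called lower, Mobp (adjusted p = 0.00968) and Mbp (0.0237) among them. With only the 8 libraries compared, 6 were called, where 0.18% of all genes were. In Neil2-KO the same genes were not low, with Mbp at 17491 and 9478 at 3 h and 4739 and 4614 at 6 h. Ipsilaterally, where 9.31% of all genes were called, limma called Mobp (adjusted p = 0.0143), Mbp (0.0227) and Mag (0.0268) lower. It did not call Cldn11 or the list members Cnp, Bcas1 and Enpp6. WT libraries varied on that side, with Mbp at 2560 in 6 h replicate 1, against 2106 to 3553 in labelled Neil1-KO.

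Immediate early genes, the transcription factors and regulators that neurons switch on within minutes of strong activity or stress, lay below WT at 3 h as values. All 25 members were below 0 at 3 h, with a median of -0.816, against 10 of 25 at 6 h, with a median of 0.125. None was called over both times by limma on all 24 libraries. At 3 h alone limma called 20 of the 18364 genes, and which list members were among them is not reported here. Junb was at -1.27 ± 0.197 (SE) at 3 h and Fosb at -2.82 ± 0.543. DESeq2 called 3 of them over both times, where 0.457% of all genes were called: Junb (adjusted p = 0.00162), Fosb (0.00372) and Maff (0.0186). Fosb, an AP-1 subunit, stood at 694 and 192 at 3 h and 125 and 81.7 at 6 h in labelled Neil1-KO, against 3940.1 and 1704 at 3 h and 321 and 164 at 6 h in WT. The 3 h libraries did not overlap, and the log2 fold change over both times was -2.0 ± 0.38 (adjusted p = 0.057). Junb, another AP-1 subunit, stood at 597 and 431 at 3 h and 384 and 330.5 at 6 h in labelled Neil1-KO, against 1309 and 1142 at 3 h and 453 and 331 at 6 h in WT (-0.69 ± 0.14, adjusted p = 0.0733). Fosb and Junb were called with only the 12 contralateral libraries in the fit, each at an adjusted p of 0.036, and neither was called with only the 8 libraries compared (adjusted p = 0.114 for Fosb and 0.268 for Junb, by limma). Fos was at -1.52 ± 0.39 (adjusted p = 0.241) and Maff, a small Maf transcription factor, at -1.05 ± 0.23 (adjusted p = 0.102).

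**Figure D5:**
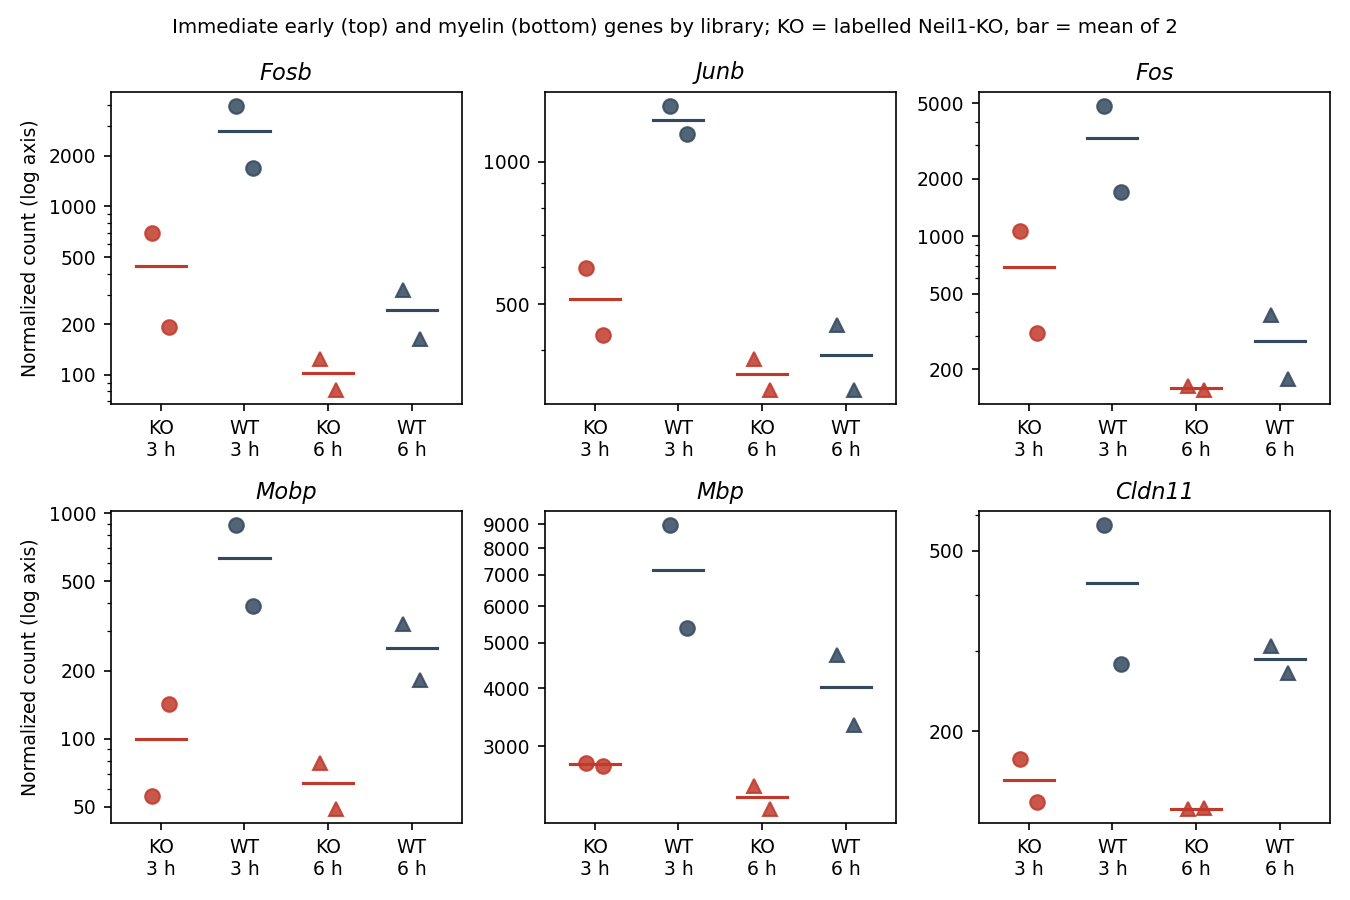
Normalized counts (log axes) of the immediate early genes Fosb, Junb and Fos and the myelin genes Mobp, Mbp and Cldn11 in each contralateral library, with labelled Neil1-KO (KO, red) left of WT at each time and bars for the mean of 2 libraries. At 3 h both labelled Neil1-KO libraries are below both WT libraries for all 6 genes.

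Genes that respond to stress hormones and genes of the circadian clock were also mostly below 0. Of 15 glucocorticoid targets, 14 were below 0, with a median of -0.371, and Klf9 was called by limma. Klf9 kept this call in 2 of the 8 fits that leave out 1 library. DESeq2 called 5 of the 15, where 0.457% of all genes were called. Sgk1, a kinase that glucocorticoids induce, was at -0.53 ± 0.12 (adjusted p = 0.123), and Errfi1, an inhibitor of the epidermal growth factor receptor, at -0.49 ± 0.11 (adjusted p = 0.102). Lcn2, the iron-carrier binding protein of reactive glia, stood at 35.4 and 6.55 at 3 h and 17.9 and 17.1 at 6 h in labelled Neil1-KO, against 136 and 68.3 at 3 h and 34.6 and 65.9 at 6 h in WT, and overlapped by its highest and lowest library (adjusted p = 0.143). Of 18 circadian clock genes tested, 17 were below 0, with a median of -0.315 and no call by limma. DESeq2 called 1 of the 18. Per2 was at -1.21 at 3 h and 0.01 at 6 h, and the hour of day of each sample is not given in the labels.

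Lists of the injury response had medians below 0 at 3 h and near 0 at 6 h. The cytokine, chemokine and NF-kB list had a median of -0.578 at 3 h and -0.000932 at 6 h, and the integrated stress and unfolded protein list had -0.418 and -0.0726 at the same times, with no call in either. Ptgs2, the inducible cyclooxygenase, was at -0.55 ± 0.16 (adjusted p = 0.33). With only the 12 contralateral libraries limma called Ptgs2 (adjusted p = 0.0454), and with only the 8 compared it did not (0.111). Creld2, a chaperone-like protein of the endoplasmic reticulum, was at -0.44 ± 0.11 (adjusted p = 0.197). Heat shock genes had a median of -0.0974. Among them the small heat shock gene Cryab, which also lies on chromosome 9 and is abundant in oligodendrocytes, stood at 198 and 142 at 3 h and 145 and 109.8 at 6 h in labelled Neil1-KO, against 361 and 349.5 at 3 h and 240.5 and 286 at 6 h in WT. It was apart between the groups without passing the threshold by limma on all 24 libraries (-1.06 ± 0.21, adjusted p = 0.0733). DESeq2 called Cryab (adjusted p = 0.00137). Limma called it with only the 12 contralateral libraries (adjusted p = 0.00969) and with only the 8 compared (0.00463). The microglia markers had a median of -0.215, with 6 of 12 wholly below WT, where 2.42% of all genes were, and none called. Ipsilaterally the median of these markers was 0.266. Contralaterally C1qb, a complement subunit, was at -0.44 ± 0.16 (adjusted p = 0.57).

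Cell cycle genes were mostly above 0. Of 20 members, 19 were above 0, with a median of 0.223, and none was called by limma on all 24 libraries. With only the 12 contralateral libraries limma called Top2a (adjusted p = 0.0454), and with only the 8 compared it did not (0.231). Top2a, the topoisomerase of dividing cells, stood at 427 and 395 at 3 h and 407 and 415 at 6 h in labelled Neil1-KO, against 222 and 226 at 3 h and 350.1 and 409 at 6 h in WT (0.50 ± 0.15, adjusted p = 0.386). The difference was 0.88 at 3 h and 0.12 at 6 h. The labelled Neil1-KO libraries lay close together at both times, while the WT libraries were lower at 3 h.

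The choroid plexus markers summed to between 1167 and 34717 normalized counts in labelled Neil1-KO and between 1345 and 45859 in WT. All 10 members were below 0 over both times and none was called, with a median of 0.161 at 3 h and -3.07 at 6 h, and no member was at 0 in every library of a genotype. The part of choroid plexus content and of sex in the lists described above was not tested. For the 19 called genes, the counts with a term for each are given with the processing choices. The medians of the nuclear-encoded respiratory chain genes (-0.0683), hypoxia and glycolysis genes (-0.05), NRF2 targets (-0.0592), p53 targets (-0.093) and the interferon and antigen presentation genes (-0.151) were small, with no call by limma. DESeq2 called 1 of the 19 NRF2 targets, where 0.457% of all genes were called. Markers of thalamus (median -0.0773) and striatum (-0.249), which border the dissection, had no call by limma on all 24 libraries. The striatal signalling gene Ppp1r1b was at -0.58 ± 0.12 (adjusted p = 0.0997). DESeq2 called Ppp1r1b (adjusted p = 0.00647), as did limma with only the 12 contralateral libraries (0.0237). Limma did not call it with only the 8 compared (0.0701).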

How the data were processed

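RNA was sequenced from 24 hippocampal libraries, and the 8 contralateral libraries of labelled Neil1-KO and WT are compared. The authors deposited a signal per gene and library: size-factor normalized read counts. The submitters' processing notes name Trim Galore, HISAT2, SAMtools, featureCounts, DESeq2 and the build GRCm39 (mm39). Versions, settings and strand use are not given in the sources used here, so overlapping and antisense genes cannot be told apart. All deposited values (100%) were whole multiples of 1 read within 1e-06, which gave whole reads. Of 33084 lines, 10770 (32.55%) had no gene name and were left out; they held 8.41% to 9.06% of the reads of the 8 libraries.

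Genes that reached a value of 10 in 2 or more of the 24 libraries were tested (18364, 82.3% of those named) with limma-trend (limma 3.58.1, R 4.3.3) on log2(value + 1), fitting 12 group means (2 libraries each). This understates the change of low genes. The contrast averaged 3 h and 6 h, so time was held, and p-values are two-sided with Benjamini-Hochberg adjustment over all genes. The titles call the replicates biological, so each p-value reflects the spread between such samples. The edgeR 4.0.16 quasi-likelihood test and the DESeq2 1.42.0 Wald test ran on the whole reads; edgeR called 18 genes. The fit was tested on simulated data. The alternatives are given with the processing choices.

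The comparison, lists and rule for named genes were chosen with earlier results of these data known. The rule took called genes with groups that do not overlap, by fold change, called genes near Neil1, called genes left out for their name, and up to 4 members of each list by p. Spsb1, whose groups overlap, and the further genes of the closing section were chosen after their values were seen. The 8 libraries titled NEIL2-KO carry the genotype tag NEIL1-KO and were grouped by title; Neil2 was near 0 in their contralateral libraries. Some list members are not reported here. Sequences are from RefSeq and GENCODE on GRCm38.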

Additional observations from a re-analysis of the deposited data

Results flagged for a closer look

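Within a group of 4 libraries, a library was picked out when its gap to the next, as a share of the group's range, exceeded Dixon's 95% critical value for 4 values. Of 116 groups of 4 examined, 9 were picked out, where chance gives about 1 in 20. As each group mixes 3 h and 6 h, a difference between the times also enters the range.

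In 7 of them the library was a labelled Neil1-KO library, and in each of these it was replicate 1 at 3 h, the most deeply sequenced of the 8. It had Ttr at 29293 normalized counts against 154 to 263 in the other 3, Fos at 1067.5 (156 to 310.1), Sgk1 at 1707 (1062 to 1149), Errfi1 at 885 (610.4 to 631), Cldn11 at 173.6 (135 to 139.8), Pdgfra at 3619 (3254 to 3315) and Dcx, the doublecortin of young neurons, at 11187 (10303 to 10444). In WT, Cldn11 was at 567.9 in replicate 1 at 3 h (268 to 309 in the others) and Tmem254a at 1512 in replicate 2 at 6 h (1269.7 to 1301). Of these genes only Tmem254a was called between the genotypes by limma on all 24 libraries, and it was called in all 8 fits that leave out a library.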

How the results depend on the processing

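The genotype comparison gave 19 called genes, and 14 of these were called in all 8 fits that leave out 1 library (15 to 33 called in all, 33 without WT 3 h replicate 2). The exceptions were Nlrx1 (6 of 8 fits), Neo1 (4), Klf9 (2), Rasd1 (2) and 2900052N01Rik (1). Over 418 pairs of gene and alternative, 0 changed sign and 59 lost the call. The count was 84 with DESeq2 and 33 with the 8 compared libraries only (17 of the 19 still called, not Spsb1 and Rasd1). It was 71 with the 12 contralateral libraries only, 20 at 3 h alone and 10 at 6 h alone. Without the animals with high Xist it was 10, all among the 19. Sdhd, Nlrx1, Htr3a, Neo1, Klf9, Spsb1, Duxbl1, Rasd1 and 2900052N01Rik were not called without those animals. A term for high Xist and a term for choroid plexus markers each gave 16. For these counts the cause was not tested, and leaving out libraries also lowers the number of samples. The difference between times gave 0 calls, 1 with DESeq2 and 0 to 5 without 1 library. The difference between sides gave 0, 5 with DESeq2, 1 without the animals with high Xist and 0 to 2101 without 1 library. Labelled Neil1-KO against Neil2-KO gave 476, 942 with DESeq2, 221 with a term for high Xist, 28 without the animals with high Xist and 58 to 848 without 1 library. Same-numbered contralateral libraries of the genotypes deviated together with r = 0.2 at 3 h and 0.035 at 6 h, which does not show a pairing. The replicate block gave 22 genes. A block that takes same-numbered libraries of both sides as 1 animal, which the labels do not state, gave 19. Same-numbered sides deviated together with r = 0.271 at 3 h and 0.155 at 6 h in labelled Neil1-KO. In WT r was -0.00576 and -0.00334, and in Neil2-KO 0.0537 and 0.035. Low depth limits Trib3, Cxcl10 and other genes of a few reads.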

Other observations

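With only the 12 contralateral libraries in the fit, 52 further genes were called, 39 lower and 13 higher in labelled Neil1-KO, and 20 of all 71 called genes (0.387% of 18364) lay on chromosome 9, which holds 990 tested genes (2.02% called). The genes named here were chosen after their values were seen. Dcx, the doublecortin of migrating neurons, stood at 11187 and 10444 at 3 h and 10303 and 10337 at 6 h in labelled Neil1-KO, against 6473 and 6026 at 3 h and 8662 and 10087 at 6 h in WT (log2 fold change 0.47 ± 0.08, limma adjusted p = 0.0205). Draxin, a guidance protein for growing axons (0.50 ± 0.10, adjusted p = 0.0454), and Dpysl3, a cytoskeletal regulator of growth cones (0.33 ± 0.06, adjusted p = 0.028), were also higher. With only the 8 libraries compared, Dcx (adjusted p = 0.143), Draxin (0.0851) and Dpysl3 (0.109) were not called by limma. Kdr, the endothelial receptor for vascular growth factor, was also higher (0.45 ± 0.08, adjusted p = 0.0278).

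Among the lower ones were Ugt8a, the enzyme that makes galactosylceramide (-0.94 ± 0.16, adjusted p = 0.028), and Gjc3, a connexin of oligodendrocytes (-0.83 ± 0.16, adjusted p = 0.0419). On chromosome 9, Smad3, a transducer of TGF-beta signals, stood at 486 and 408 at 3 h and 403 and 391.5 at 6 h in labelled Neil1-KO, against 693 and 762 at 3 h and 681 and 576 at 6 h in WT (-0.68 ± 0.12, adjusted p = 0.036). Ets1, a transcription factor on the same chromosome, was higher (0.46 ± 0.07, adjusted p = 0.017), with 666 to 696 in labelled Neil1-KO and 471 to 524 in WT. Kdr, Ugt8a, Gjc3, Smad3 and Ets1 were also called with only the 8 libraries compared. None of the genes named here was called by limma with the spread of all 24 libraries. DESeq2 on all 24 libraries called Smad3 (adjusted p = 0.00162), Ugt8a (0.00849), Gjc3 (0.029) and Dcx (0.043). It did not call Draxin, Dpysl3, Kdr or Ets1.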
